A study of Schmidtea mediterranea with 171 samples.

Results

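HP1-1 (transcript SmedASXL_004476) is the planarian gene for a heterochromatin protein, and it was followed here as 1 of the 67983 transcripts counted in single cells of the planarian head. It was taken as a named gene and not by its values, and its reads were examined in all 96 single X1 cells, all 72 single X2 cells and 3 tubes of 200 cells each, of which 2 were X1 and 1 was X2. X1 and X2 are FACS gates set on Hoechst dye. Cycling neoblasts, which are the planarian adult stem cells, fall into the X1 gate, and their early progeny fall into the X2 gate. All cells and tubes came from wild-type *Schmidtea mediterranea* of the asexual clonal strain CIW4 that had been starved for 1 week, and the heads of 30 animals were amputated and dissociated to obtain them. All groups therefore share strain, starvation and amputation. By the labels, the gate and the number of cells in a library are what differed. The libraries were made with SmartSeq2, which copies the polyadenylated RNA of a lysed cell along its full length. Without molecular identifiers, its counts are of reads after amplification and not of molecules.

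HP1 proteins carry a chromodomain, through which they bind histone tails methylated at the sites that mark heterochromatin, and they help to keep such chromatin silent. In planarians, HP1-1 is known as a neoblast gene that is required for stem cell self-renewal. *piwi-1*, an Argonaute family gene, is the marker most often used to recognize neoblasts, and its RNA is known to decline as the progeny differentiate. A joint reading of both genes in the same cells shows whether the chromatin gene is found where the neoblast marker is found, within the stem cell gate and within the progeny gate.

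The median depth in reads on transcripts was 3.18 M for X1 cells (0.813 to 20.2 M) and 2.7 M for X2 cells (0.550 to 4.80 M). The X1 cells had reads on 5130 ± 1822 transcripts and the X2 cells on 2054 ± 818 (mean ± SD). Reads assigned to no transcript made up 21.2% of the counts of an X1 cell and 45.4% of those of an X2 cell on average, and they were left out of library sizes. As a check of the gates, the neoblast gene *piwi-2* was at 5 CPM or more in 95 of 96 X1 cells and 58 of 72 X2 cells. Its mean level had the other order, at 763 CPM in X1 and 1036 CPM in X2, so that *piwi-2* is a weak check. Levels are given in CPM (reads of a gene scaled to 1000000 assigned reads), and detection of a gene took 5 CPM or more. The labels do not tie cells to animals or sorts, so each gate is 1 sample. No test between the gates was therefore possible, and shares of cells are given with exact (Clopper-Pearson) 95% intervals that cover counting error only.

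HP1-1 was detected in more of the X1 cells than of the X2 cells. It reached 5 CPM in 68 of 96 X1 cells (70.8%, interval 60.7% to 79.7%) and in 20 of 72 X2 cells (27.8%, 17.9% to 39.6%). The share was more than 2-fold higher in X1, as it was for 71.5% of the 7356 transcripts read in 20% or more of the cells in either gate, so that a ratio of this size is common here. The difference of 43.1 percentage points (X1 minus X2) is at the upper end, since the median difference over these transcripts was 9.38 points and 1.223% of them had a difference as large or larger. Rarely detected transcripts cannot reach a difference of that size.

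Few cells lay near the threshold. In X1, 15 of the 28 cells under 5 CPM had at least 1 read of HP1-1 and 13 had 0 reads. In X2, 17 of the 52 cells under 5 CPM had reads and 35 had 0. The highest level under the threshold was 4.85 CPM and the lowest above it 5.09 CPM in X1 cells, and 4 X1 cells were between 1 and 5 CPM. No X2 cell was found between 1.859 CPM and 10.7 CPM, so that the X2 cells formed a low set and a high set with a gap between them. At 1 read or more, HP1-1 was present in 83 X1 cells (86.5%, 78.0% to 92.6%) and 37 X2 cells (51.4%, 39.3% to 63.3%). After a thinning of all libraries to 500000 assigned reads, which left out no cell, at least 1 read remained in 71 X1 cells (74.0%, 64.0% to 82.4%) and 22 X2 cells (30.6%, 20.2% to 42.5%).

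The order of the gates changed with the threshold. At 50 CPM or more, 42 X1 cells (43.8%) and 18 X2 cells (25.0%) had HP1-1. At 100 CPM or more the counts were 25 X1 cells (26.0%) and 15 X2 cells (20.8%), with overlapping intervals. At 300 CPM or more they were 1 X1 cell (1.04%, 0.0264% to 5.67%) and 9 X2 cells (12.5%, 5.88% to 22.4%). In CPM, HP1-1 was thus widespread at a moderate level in X1 and infrequent but high where present in X2. With the authors' size factors in place of CPM, the mean over all cells was higher in X1 (log2 ratio X1 over X2 1.251). The levels of detected cells alone were not compared on that scale.

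The levels over all cells show the same shape. In X1 cells HP1-1 ranged from 0 to 312 CPM with a median of 37.9 CPM and a mean of 66.1 ± 72.3 CPM (SD, n = 96). In X2 cells it ranged from 0 to 898 CPM with a median of 0.245 CPM and a mean of 94.5 ± 216 CPM (SD, n = 72). Among the cells with HP1-1 at 5 CPM or more, the median was 86.9 CPM in X1 (n = 68) and 233 CPM in X2 (n = 20). The ranges of these detected cells overlapped, from 5.09 to 312 CPM in X1 and from 10.7 to 898 CPM in X2.

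**Figure D1:**
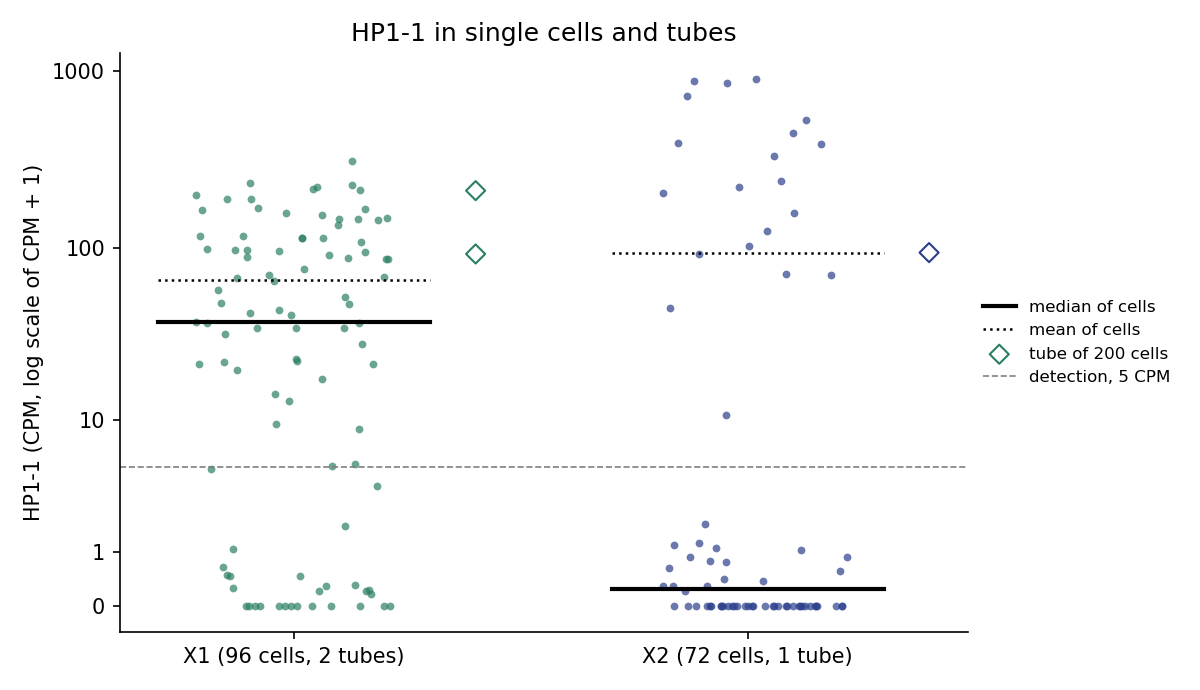
HP1-1 in each single cell (points) and in each tube of 200 cells (diamonds), in CPM on a log scale of CPM + 1, for X1 on the left and X2 on the right; the solid line is the median and the dotted line the mean of the single cells, and the dashed line the detection threshold of 5 CPM. The X1 cells fill the range up to 312 CPM around a median of 37.9 CPM, whereas the X2 median is 0.245 CPM and 20 X2 cells stand apart at 10.7 to 898 CPM.

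The mean of the X2 cells was carried by a small number of cells. The 4 highest X2 cells had 898, 873, 855 and 722 CPM and held 49.2% of the summed CPM of the gate, and 5 of the 72 cells held 50% of it. The 4 highest X1 cells had 312, 234, 228 and 222 CPM and held 15.7% of their gate, where 17 of the 96 cells were needed for 50%. The coefficient of variation was 1.093 in X1 and 2.281 in X2.

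The ratio of the means had no stable sign. The log2 ratio of mean CPM, X1 over X2 with a pseudocount of 1, was -0.51. Of the 7356 transcripts, 30.8% were at least 2-fold higher in X1 and 14.5% at least 2-fold lower, and HP1-1 was in neither set. The median log2 ratio over these transcripts was 0.29, and 23.6% of them had a ratio at or below that of HP1-1. Without the 2 highest cells of each gate the log2 ratio was -0.22. Without the 4 highest the means were 58.2 CPM in X1 and 50.8 CPM in X2, and the log2 ratio was 0.19. With the authors' size factors in place of CPM it was 1.251. The mean size factor was 0.926 in X1 cells and 2.06 in X2 cells, and it rests on the 29 transcripts read in every cell together with the entry of unassigned reads. The part of that entry in the change of sign was not tested.

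The tubes gave HP1-1 levels near the means of single cells in X2 and above them in X1. The first X1 tube had 1714 reads of HP1-1, or 93.0 CPM (exact Poisson 95% interval 88.7 to 97.6), and the second X1 tube 2263 reads, or 212 CPM (204 to 221). The X2 tube had 1288 reads, or 94.7 CPM (89.6 to 100.04). The X1 tubes thus differed from each other by 2.281-fold, with the X2 tube inside their range, so that the tubes do not order the gates. A tube gives a sum over its cells, in which fewer cells with HP1-1 and less HP1-1 RNA per cell cannot be told apart. The mean of the single X1 cells was 0.711 of the first and 0.312 of the second X1 tube, and the mean of the single X2 cells was 0.998 of the X2 tube. *piwi-1* differed less between the X1 tubes, at 427 CPM in the first and 548 CPM in the second (1.284-fold), and it had 475 CPM in the X2 tube. The X1 tubes had 18.4 and 10.7 M assigned reads and the X2 tube 13.6 M.

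Within the X1 gate, HP1-1 and *piwi-1* were found largely in the same cells. *piwi-1* (SmedASXL_008653) reached 5 CPM in 69 of 96 X1 cells. Both genes were detected in 61 X1 cells, *piwi-1* alone in 8, HP1-1 alone in 7 and neither in 20. HP1-1 was therefore present in 61 of the 69 *piwi-1* positive X1 cells (88.4%, 78.4% to 94.9%) and in 7 of the 27 *piwi-1* negative X1 cells (25.9%, 11.1% to 46.3%). These intervals do not overlap. Read the other way, *piwi-1* was detected in 89.7% of the HP1-1 positive X1 cells (79.9% to 95.8%, n = 68) and in 28.6% of the HP1-1 negative ones (13.2% to 48.7%, n = 28).

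Within the X2 gate taken as a whole, no such link was seen. *piwi-1* reached 5 CPM in 46 of 72 X2 cells, so that its detection was close to that in X1 while HP1-1 was much rarer. Both genes were detected in 12 X2 cells, *piwi-1* alone in 34, HP1-1 alone in 8 and neither in 18. HP1-1 was present in 12 of the 46 *piwi-1* positive X2 cells (26.1%, 14.3% to 41.1%) and in 8 of the 26 *piwi-1* negative X2 cells (30.8%, 14.3% to 51.8%). The share in *piwi-1* positive X2 cells was thus close to that in *piwi-1* negative X1 cells.

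**Figure D2:**
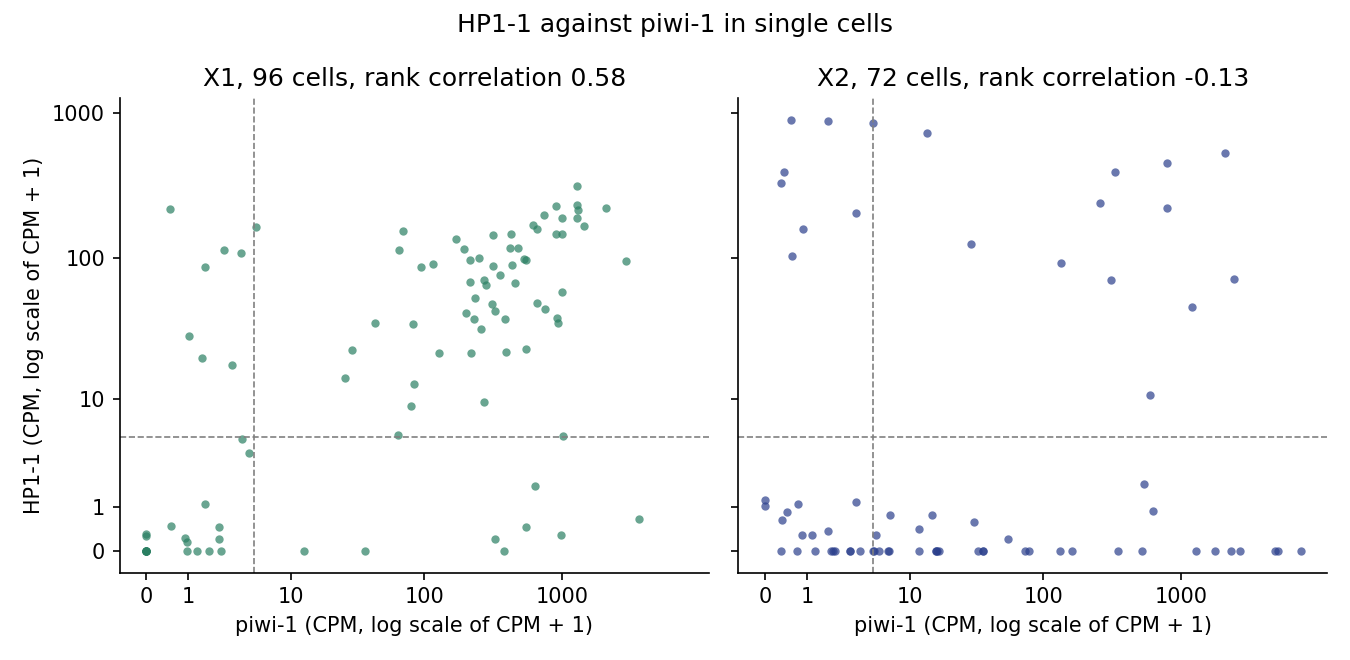
HP1-1 against *piwi-1* in every single cell, both in CPM on a log scale of CPM + 1, for X1 (left, 96 cells) and X2 (right, 72 cells); dashed lines mark 5 CPM. In X1, 61 cells lie in the upper right field and HP1-1 goes up with *piwi-1* (rank correlation 0.58), whereas in X2 the 46 cells with *piwi-1* hold 34 without HP1-1 (rank correlation -0.13).

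The exceptions in X1 were not all of 1 kind. The 7 X1 cells with HP1-1 and without *piwi-1* had HP1-1 at 17.8 to 218 CPM with a median of 87.1 CPM, which is the level of the 61 cells with both genes (5.09 to 312 CPM, median 86.6 CPM). X1 cell 43 was the highest of the 7, with 917 reads of HP1-1 and 2 of *piwi-1*. Of the 8 X1 cells with *piwi-1* and without HP1-1, X1 cell 3 had the highest *piwi-1* level of the gate, 3542 CPM, against 0.647 CPM of HP1-1. That cell had reads on 978 transcripts, the fewest of any X1 cell. Others of the 8 were rich in transcripts, such as X1 cell 92, with 548 CPM of *piwi-1*, 0.463 CPM of HP1-1 and 6468 transcripts.

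The 20 X2 cells with HP1-1 included cells with and without much *piwi-1*. In the 12 with both genes HP1-1 ranged from 10.7 to 722 CPM (median 174 CPM), and in the 8 without *piwi-1* from 103 to 898 CPM (median 362 CPM). Of the 4 X2 cells highest in HP1-1, cells 11, 63 and 71 had *piwi-1* at 0.545, 1.817 and 4.99 CPM and cell 12 had it at 13.8 CPM. The highest level of HP1-1 in X2 was thus found in cells with little *piwi-1*. X2 cell 39 was the highest in HP1-1 among those with at least 500 CPM of *piwi-1*, with 529 CPM of HP1-1 and 2059 CPM of *piwi-1*.

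Over all X1 cells, HP1-1 was detected more often where *piwi-1* was detected. The share did not rise further from 50 to 500 CPM of *piwi-1* to 500 CPM or more. Over all X2 cells no steady rise was seen. Of the X1 cells with *piwi-1* at 50 to 500 CPM, 34 of 36 had HP1-1 (94.4%, 81.3% to 99.3%), and of those at 500 CPM or more 23 of 27 (85.2%, 66.3% to 95.8%). At 5 to 50 CPM of *piwi-1*, HP1-1 was found in 4 of 6 X1 cells. In X2, HP1-1 was found in 2 of 20 cells at 5 to 50 CPM of *piwi-1* (10.0%, 1.235% to 31.7%), in 4 of 10 at 50 to 500 CPM (40.0%, 12.2% to 73.8%) and in 6 of 16 at 500 CPM or more (37.5%, 15.2% to 64.6%). At 50 CPM of *piwi-1* or more, HP1-1 was present in 57 of 63 X1 cells (90.5%, 80.4% to 96.4%) and in 10 of 26 X2 cells (38.5%, 20.2% to 59.4%). These 2 intervals do not overlap, but they cover counting error over cells only, and each gate is 1 sample. In 13 of these 26 X2 cells HP1-1 had 0 reads, as it had in 1 of the 63 X1 cells.

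**Figure D3:**
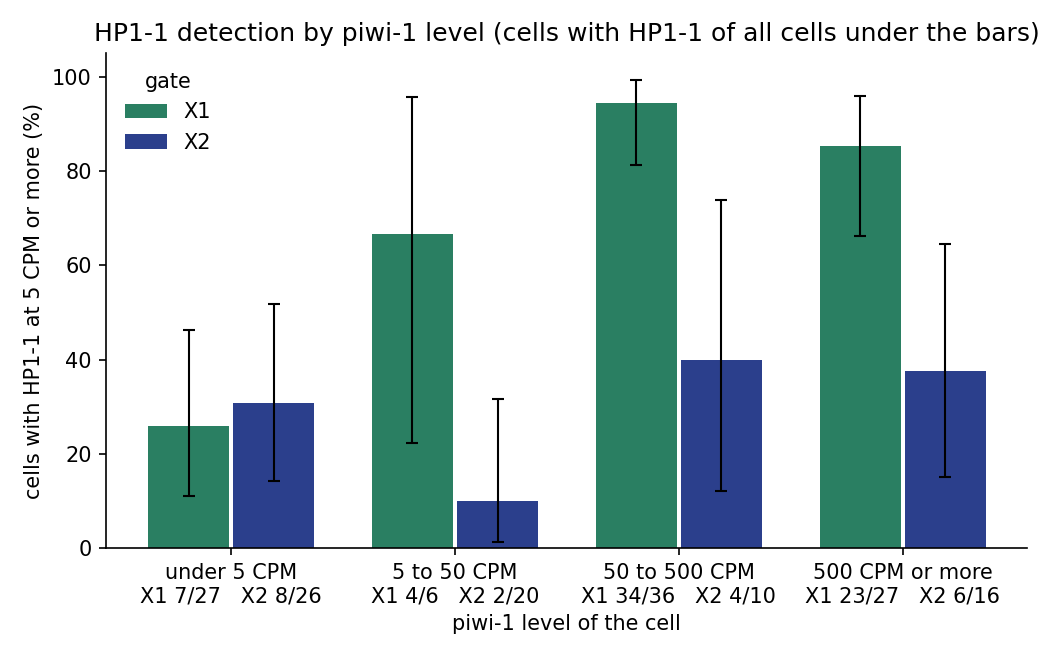
Share of cells with HP1-1 at 5 CPM or more (y axis, %) in 4 ranges of the *piwi-1* level (x axis), with the X1 bar left of the X2 bar and exact 95% intervals; the number of cells is given under each bar. X1 shares are 94.4% and 85.2% in the upper ranges of *piwi-1*, and X2 shares are 40.0% and 37.5%.

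The levels gave the same picture as the counts. Spearman's rank correlation of HP1-1 with *piwi-1* was 0.58 over the 96 X1 cells (Pearson's r of log2(CPM + 1) 0.60) and -0.13 over the 72 X2 cells (Pearson's r 0.03). These are descriptions over cells that share a preparation and differ in depth, and the cells are not replicates. HP1-1 also went with the number of transcripts read per cell, with a rank correlation of 0.41 in X1 and 0.16 in X2, whereas *piwi-1* had 0.17 and 0.14 with that number. X1 cells with HP1-1 had reads on 5611 ± 1735 transcripts and X1 cells without it on 3962 ± 1490 (SD), and 3554 ± 928 against 2655 ± 938 after thinning. At a given rank of transcripts per cell the partial rank correlation of HP1-1 with *piwi-1* in X1 was 0.57, so that the link was as large without that number.

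Among the 61 X1 cells with both genes at 5 CPM or more, the rank correlation was 0.47, so that the level of HP1-1 went with that of *piwi-1* also where both were present. The median ratio of HP1-1 to *piwi-1* was 0.190 in these cells (quartiles 0.117 and 0.323), and HP1-1 was above *piwi-1* in 3 of the 61. In the 12 X2 cells with both genes the median ratio was 0.429 (quartiles 0.181 and 0.994), with HP1-1 above *piwi-1* in 3, and the rank correlation was -0.17. The corresponding ratio of reads was 0.218 in the first and 0.387 in the second X1 tube.

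The link in X1 was examined in ranges of 24 cell numbers, since the number of transcripts per cell differs along the numbers in the labels, from a mean of 3390 in X1 cells 1 to 24 to 6639 in X1 cells 73 to 96. The rank correlation was 0.72, 0.34, 0.77 and 0.30 in the 4 successive ranges of X1 cells, positive in each. HP1-1 was detected in 14, 18, 16 and 20 of 24 cells of these ranges. In X2 the 3 ranges differed in sign, with a rank correlation of 0.19 in cells 1 to 24, 0.31 in cells 25 to 48 and -0.61 in cells 49 to 72. Pearson's r of log2(CPM + 1) was 0.40, 0.40 and -0.43 in these ranges. Given the number of transcripts per cell, the partial rank correlation was 0.20, 0.10 and -0.61. Without X2 cells 49 to 72, the rank correlation in X2 was 0.12. In that last range 6 of 24 cells had HP1-1, 15 had *piwi-1* and 1 had both, and the sign of the rank correlation in X2 therefore rests on these cells. HP1-1 was detected in 9, 5 and 6 of 24 cells of the X2 ranges. No label says whether a range of cell numbers was a plate or a sort. In X1 cells 1 to 24, the assigned reads and the HP1-1 reads of every cell were even numbers, which was not so in any other range. No cell of that range therefore had exactly 1 read of HP1-1. The reason for the even numbers, and its effect on low counts and thinning, was not tested.

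The cells were next read by the 10 groups that the authors' hierarchical clustering yields, rebuilt from the 1000 transcripts of highest variation. HP1-1 is number 5679 and *piwi-1* number 2028 in the deposited order of 67984 entries by variation, so that neither entered the clustering. The groups come from the same cells and their values are a description. In X1 they also follow the cell numbers. Group 2 lies within cells 3 to 22, Group 3 within 4 to 61 and the X1 cells of Group 4 within 78 to 96. Group 1 spans cells 1 to 80. Group and range of cell numbers can therefore only partly be told apart. HP1-1 was detected in 43 of 55 cells of Group 1 (78.2%, 65.0% to 88.2%), in 5 of 7 of Group 2, and in 15 of the 17 X1 cells of Group 4 (88.2%, 63.6% to 98.5%). Group 3 was the exception among X1 groups, with HP1-1 in 5 of 17 cells (29.4%, 10.3% to 56.0%) and 0 reads in 9 of them. *piwi-1* was likewise detected in 2 of the 17 Group 3 cells and in 67 of the 79 other X1 cells, of which 63 had HP1-1 (79.7%, 69.2% to 88.0%).

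HP1-1 and *piwi-1* were both low in Group 3. Of its 17 cells, 5 had HP1-1, 2 had *piwi-1* and 1 had both. Its cells in the range 1 to 24, which are X1 cells 4, 6, 7, 13, 16 and 24, all had 0 reads of both genes. The low share of HP1-1 in Group 3 thus rests in part on that range. The 5 cells with HP1-1 were X1 cells 27, 37, 41, 43 and 45, and of these only cell 37 had *piwi-1* at 5 CPM or more. The rank correlation of the genes was 0.49, but it rests largely on levels under 5 CPM, and Pearson's r of log2(CPM + 1) was 0.09. HP1-1 had a rank correlation of 0.71 with the number of transcripts per cell in this group. Given that number, the partial rank correlation of the genes was 0.24. The median of HP1-1 in Group 3 was 0 CPM and the highest cell, X1 cell 43, had 218 CPM. In Group 1 the median was 37.7 CPM, in Group 2 90.0 CPM and in the X1 cells of Group 4 88.1 CPM, with highest cells at 312, 234 and 215 CPM. Within Group 1 the rank correlation of HP1-1 with *piwi-1* was 0.68 (n = 55), so that a positive value was also found among cells outside Group 3. The X1 gate without Group 3 was not examined as a whole. In the X1 cells of Group 4, where all 17 cells had *piwi-1*, the rank correlation was -0.03.

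The X2 cells fell into a set of groups with HP1-1 and a set without. HP1-1 was detected in 8 of the 17 X2 cells of Group 4 (47.1%, 23.0% to 72.2%), in 8 of 28 cells of Group 5 (28.6%, 13.2% to 48.7%) and in 4 of 14 of Group 6 (28.6%, 8.39% to 58.1%). It was detected in 0 of the 13 cells of Groups 7 to 10, which allows a share of up to 24.7%, and 9 of these 13 had 0 reads. *piwi-1* was detected in 10 of the same 13 cells. Groups 7 to 10 are counted as 1 set because each had none, so that this set was chosen after its values were seen and its share is a description. In Groups 4 to 6 combined the share was 33.9% (22.1% to 47.4%). Group 4 holds cells of both gates, with HP1-1 in 15 of 17 of its X1 cells and 8 of 17 of its X2 cells, and the intervals overlap between 63.6% and 72.2%.

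**Figure D4:**
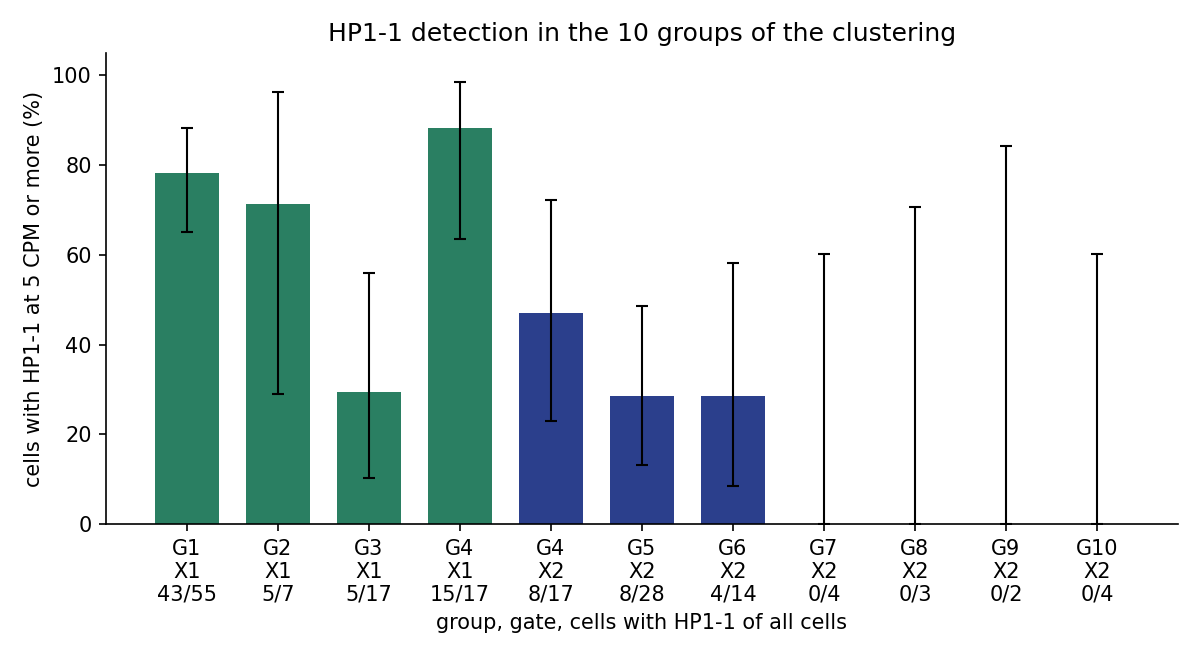
Share of cells with HP1-1 at 5 CPM or more (y axis, %) in each group of the clustering, X1 cells left and X2 cells right, with exact 95% intervals and the cell counts under each bar. Group 3 has 5 of 17 cells, against 43 of 55 in Group 1 and 15 of 17 in the X1 cells of Group 4, and Groups 7 to 10 have none.

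HP1-1 was then set beside markers of neoblasts and of other cell types. The list of neoblast genes held *piwi-1*, the Argonaute genes *piwi-2* and *piwi-3*, *bruli* (an RNA-binding protein of the Bruno family), and *vasa-1* and *vasa-2* (DEAD-box RNA helicases). All 6 had a positive rank correlation with HP1-1 over X1 cells, with a median of 0.45 and a range from 0.31 for *bruli* to 0.58 for *piwi-1*. The median over all 7144 transcripts with reads in at least 20% of X1 cells was 0.11, and 5714 of them had a positive value. A positive sign alone was therefore common. *vasa-1* had a rank correlation of 0.54, *piwi-3* 0.49, *piwi-2* 0.41 and *vasa-2* 0.39. Without X1 cells 1 to 24 the 6 values ranged from 0.28 for *vasa-2* to 0.59 for *piwi-3*.

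In X1 cells, detection of HP1-1 was tied to how many of these 6 genes a cell had. All 6 were detected in 32 X1 cells, of which 31 had HP1-1 (96.9%, 83.8% to 99.9%), and 5 of the 6 in 20 X1 cells, of which 19 had HP1-1. With 4 of the 6 genes the count was 9 of 13 X1 cells, with 3 it was 5 of 13, with 2 it was 2 of 9, with 1 it was 2 of 8, and the single X1 cell with none lacked HP1-1. With the cells divided at 5 genes, a division chosen after these values were seen, HP1-1 was found in 50 of 52 X1 cells (96.2%, 86.8% to 99.5%) and in 18 of 44 (40.9%, 26.3% to 56.8%). The 13 X1 cells with 0 reads of HP1-1 were all among these 44. Since X1 cells with more transcripts had more of most genes, the number of transcripts moves with this count, and its part was not tested. *piwi-1* is itself 1 of the 6 genes. It was detected in all of the 52 X1 cells and in 17 of the 44, so that this division overlaps with the one by *piwi-1* given above.

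No such order was seen in X2. HP1-1 was found in 6 of 17 X2 cells with 1 of the 6 genes, in 4 of 24 with 2, in 6 of 17 with 3, in 2 of 7 with 4, in 2 of 4 with 5 and in none of 3 with 0. The rank correlation was positive for 3 of the 6 genes in X2, with a median of -0.03, from -0.20 for *bruli* to 0.25 for *piwi-2*. The median over the 2058 transcripts with reads in at least 20% of X2 cells was 0.01, and 1098 of them had a positive value. *vasa-1*, *vasa-2* and *bruli* were at 5 CPM in 9, 10 and 10 of 72 X2 cells, so their values rest on few cells. HP1-1 was present in 7 of the 10 X2 cells with *vasa-2* and in 13 of the 62 without it. For *bruli* the order was the other way, with 2 of 10 against 18 of 62. It was 3 of 9 against 17 of 63 for *vasa-1*, 17 of 58 against 3 of 14 for *piwi-2* and 9 of 31 against 11 of 41 for *piwi-3*. The rank correlation of *piwi-1* with the other 5 ranged from 0.30 to 0.68 in X1 and from -0.04 to 0.27 in X2.

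Most genes of the other lists had low values. Of the 6 neural genes, 2 had a positive rank correlation with HP1-1 in X1 and the median was -0.07. Over all transcripts it was positive for 5714 of 7144. *egr-4*, a zinc finger transcription factor gene, had the lowest value, -0.21, and *castor*, another zinc finger gene, the highest, 0.20. HP1-1 was present in 8 of the 17 X1 cells with *egr-4* and in 60 of the 79 without it, and in 21 of 23 X1 cells with *castor* and 47 of 73 without it. *pc2* (a prohormone convertase), *chat* (choline acetyltransferase), *synapsin* (a synaptic vesicle protein) and *nkx2.4* (a homeobox gene) had rank correlations of -0.07, -0.09, 0.05 and -0.07 in X1. In X2, *pc2*, *synapsin*, *castor*, *nkx2.4* and *egr-4* were detected in 1 to 3 cells each, so that only *chat*, at 33 of 72 cells, gives a value over many cells, and its rank correlation was -0.13.

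The sigma class list, which names a set of neoblasts with broad potential, had a positive rank correlation in X1 for all 5 genes (median 0.26, from 0.14 for *inx-13* to 0.31 for *soxP-1*). The sign says little here, since 5714 of the 7144 transcripts also had a positive value. HP1-1 was present in all 22 X1 cells with *fgfr-4*, an FGF receptor gene, and in 46 of the 74 without it. This was the largest contrast of the 5 genes. The counts were 21 of 28 with and 47 of 68 without *soxP-1*, and 23 of 31 with and 45 of 65 without *nlk-1*. They were 18 of 21 with and 50 of 75 without *soxP-2*, and 12 of 14 with and 56 of 82 without *inx-13*. As for *fgfr-4*, all X1 cells with the epidermal lineage genes *zfp-1* (17 of 17) and *soxP-3* (9 of 9) had HP1-1. Their rank correlations were 0.22 and 0.15. Given the number of transcripts per cell, the partial rank correlation was 0.22 for *fgfr-4*, 0.11 for *zfp-1* and 0.03 for *soxP-3*. Over the 5 sigma class genes it ranged from 0.07 for *nlk-1* to 0.22 for *fgfr-4*. The marker of protonephridia, the excretory organs, *pou2/3*, reached 5 CPM in 3 X1 cells and 2 X2 cells, each of which had HP1-1. *alpha-tubulin*, a ubiquitous gene, had a rank correlation of 0.04 in X1 and -0.11 in X2, and HP1-1 was found in 61 of the 86 X1 cells with it and in 7 of the 10 without it.

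**Figure D5:**
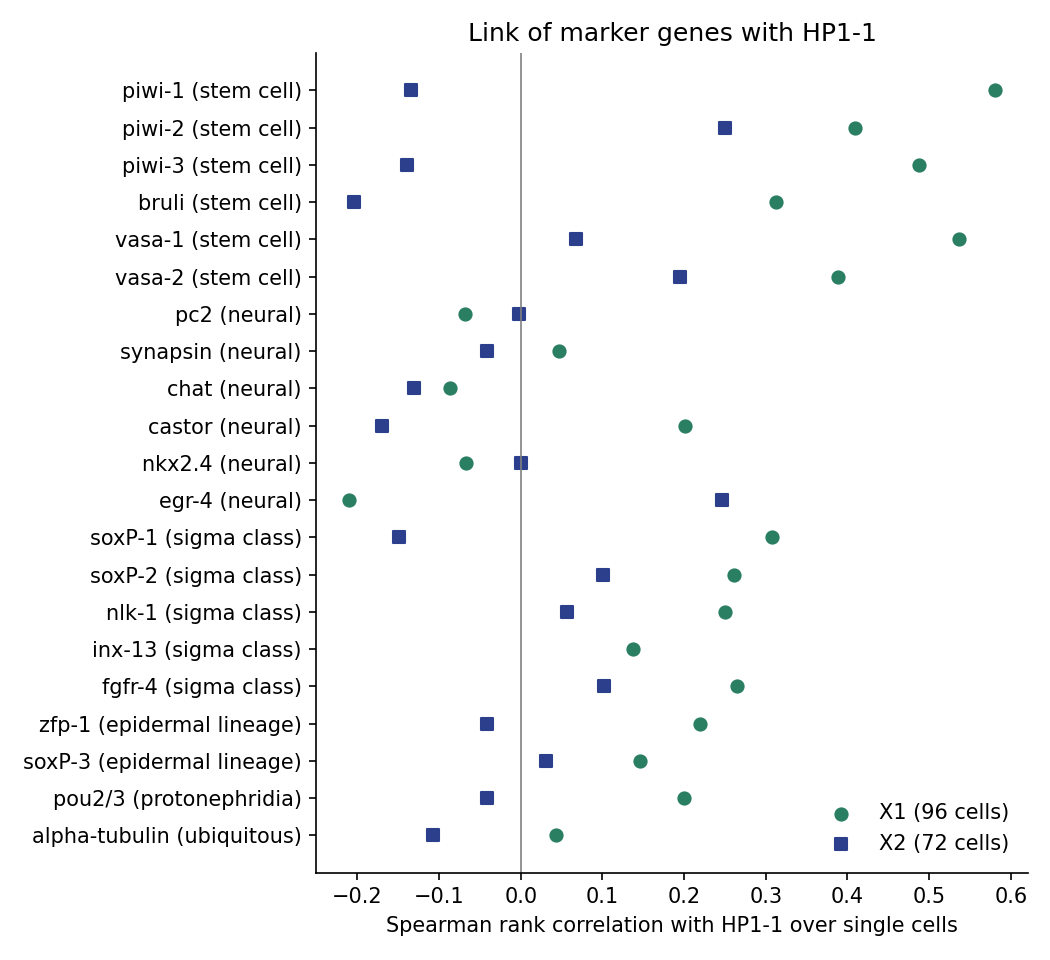
Spearman's rank correlation with HP1-1 over single cells (x axis) for each marker gene (y axis, its list in brackets), circles for the 96 X1 cells and squares for the 72 X2 cells; *inx-13* has no X2 value because it had 0 reads there. The 6 neoblast genes lie at 0.31 to 0.58 in X1 and at -0.20 to 0.25 in X2.

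Across the whole table, *piwi-1* was among the transcripts most like HP1-1 in X1 cells. In CPM it ranked first of 7144 transcripts by rank correlation (0.014% at or above its value, which is *piwi-1* itself), and 9 of these transcripts (0.126%) had a rank correlation of 0.5 or more. The next were SmedASXL_013830 (rank correlation 0.55, detected in 59 X1 cells, 54 of them with HP1-1), SmedASXL_017765 (0.55, 47 cells, 43 with HP1-1), *vasa-1* (0.54, 67 cells, 59 with HP1-1) and SmedASXL_005855 (0.53, 54 cells, 50 with HP1-1). These differ by little, and their order is not fixed. *piwi-1* ranked 5 with edgeR's TMM factors and 4 after thinning to 500000 reads. Without X1 cells 1 to 24, *piwi-1* ranked 9 of 8377 transcripts with a rank correlation of 0.52, *piwi-3* ranked 2 with 0.59, and the 5 transcripts named above ranked between 8 and 25. Seen from *piwi-1*, HP1-1 ranked 13 in X1, where the highest rank correlation with *piwi-1* was 0.78.

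In X2 cells *piwi-1* ranked 1767 of 2058 transcripts, so that 85.9% had a rank correlation with HP1-1 at or above its value. The 5 highest were SmedASXL_013606 and SmedASXL_008389 (both 0.44), SmedASXL_007153 (0.42), SmedASXL_067725 (0.39) and SmedASXL_013877 (0.39). They reached 5 CPM in 2 to 6 of the 72 X2 cells, and none of the 2058 transcripts had a rank correlation of 0.5 or more. Correlations of this size in transcripts so seldom detected are no finding. None of the 5 was among the 5 of X1.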

How the data were processed

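The authors sequenced SmartSeq2 libraries as 50-bp single-end reads, trimmed 15 bp from the 3′ end and aligned them to the SmedASXL transcriptome assembly. The submitters' processing notes name bcl2fastq 1.8.3, Bowtie2 2.2.4 and DESeq2, the last without a version. The deposited count table holds raw counts of reads per transcript for the single cells and the tubes. The deposited normalized signal table holds, for the single cells, counts that the authors divided by a size factor and Winsorized over cells. Size factors rebuilt here gave its values with a largest relative difference of 1.54e-07. The entry for unassigned reads was left out of CPM.

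Detection took 5 CPM, likeness took transcripts read in 20% or more of a gate's cells, and log2 ratios took a pseudocount of 1. No count model was fitted, because each gate is 1 sample. Thinning drew reads without replacement (seed 1). The 10 groups were rebuilt by Ward clustering of the normalized table. Named were HP1-1, *piwi-1*, every gene of the marker lists and the 5 transcripts most like HP1-1 in each gate. Names were paired with transcripts through values of single cells that the study lists (r of 0.99 or more, exceeding that of every other transcript by 0.1 or more), which gave 21 of 21 names, and *alpha-tubulin* through the authors' code. HP1-1, the lists and the pairing rule were chosen with earlier results of these data known. The log2 ratios of means, the ranking by rank correlation, the numbering of groups and the size factors were tested on simulated data. The shares of cells were not. Tools were edgeR 4.0.16 (TMM factors) in R 4.3.3, and scipy 1.17.1, pandas 2.3.3, matplotlib 3.10.9 and numpy 2.4.6 in Python 3.11.15. Alternatives covered threshold, thinning, normalization, pseudocount, clustering scale and left-out cells or tubes.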

Additional observations from a re-analysis of the deposited data

How the results depend on the processing

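Of 85 values under alternatives for 18 results, 6 changed sign, and 17 others moved enough to be given here. HP1-1 detection was 86.5% in X1 and 51.4% in X2 cells at 1 read or more, and 43.8% in X1 at 50 CPM. The log2 ratio of means, X1 over X2, was 1.251 with the authors' size factors, 1.199 in the deposited normalized table and, as alternatives chosen after seeing the data, 0.19 without the 4 highest cells of each gate and 4.97 for medians. The share of *piwi-1* positive cells with HP1-1 was 58.7% in X1 at 50 CPM for both genes and 50.0% in X2 at 1 read, where 100% of the *piwi-1* negative X2 cells, which were only 2, had HP1-1. The rank correlation with *piwi-1* was 0.40 in X1 and 0.080 in X2 over cells with reads of both genes, and in X2 -0.022 after thinning and, chosen after seeing the data, 0.12 without cells 49 to 72. Of the 5 transcripts most like HP1-1, 0 remained in X1 without cells 1 to 24. In X2, chosen after seeing the data, 2 remained with a filter of reads in at least 5 cells, 0 with reads in at least 50% of cells, 3 with TMM and 2 after thinning. With the groups rebuilt on log2 values, HP1-1 was found in 100% of the group sharing most cells with Group 2 and 94.1% of that for Group 4, and on CPM in 69.2% of that for Group 3 and 40.5% of that for Group 4. On CPM the 1 group of 91 cells matched each of Groups 1 to 3, so that its value is not one of Group 3. Leaving out either X1 tube gave 93.0 to 212 CPM in the other. No paired analysis was possible because no test was made and the shared cell numbers of the gates do not tie cells to an animal or a sort. Shares in groups of under 20 cells have wide intervals, and those of Groups 7 to 10 rest on 2 to 4 cells each.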
